A study of Mus musculus with 8 samples.

Results

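Glycosaminoglycans are the long sulfated sugar chains of proteoglycans, and 45 genes for the enzymes and transporters that build and sulfate them were examined in mouse notochord-derived cells (NDCs) at embryonic day 12.5 (E12.5) and at birth (postnatal day 0, P0). The genes are listed by symbol from the known steps of the pathway, by a rule that uses no measured value, although earlier results of these data were known. All 45 were found among the 43346 gene identifiers of the count tables. They comprise 6 genes of the linker that joins a chain to its core protein, 16 of chondroitin and dermatan sulfate, 16 of heparan sulfate and 7 of the supply of sulfate and nucleotide sugars. RNA-Seq was performed on 4 litters at each stage, and every animal carried the same alleles, Shh-cre and ROSA:YFP, so that cells that express or once expressed Shh, and their descendants, make the yellow fluorescent protein YFP. The embryos or pups of a litter were pooled into 1 sample. The E12.5 samples (litters NDP10.2, NPD3, NPD4 and NPD9.2) were intact notochords dissected free of adjacent tissue and were not sorted, whereas the P0 samples (litters NPD26, NPD27, NPD28 and NPD30) were cells released mechanically from the nucleus pulposus (NP) of thoracic and lumbar discs and sorted for YFP. Stage and method of isolation therefore cannot be told apart.

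Chain synthesis begins in the secretory pathway with a short linker that starts from xylose on a serine of the core protein. Addition of N-acetylgalactosamine (GalNAc) to the linker commits it to chondroitin or dermatan sulfate, addition of N-acetylglucosamine commits it to heparan sulfate, and polymerases then lengthen the chain by alternating sugars. Sulfotransferases modify the chain with sulfate taken from the activated donor PAPS. Chondroitin sulfate on aggrecan holds water in cartilage and in the NP, and heparan sulfate on cell surfaces binds secreted signals such as Hedgehog, Wnt, fibroblast growth factor (FGF) and bone morphogenetic protein (BMP) ligands.

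Reads assigned to genes numbered 4442775 to 7180221 per E12.5 litter and 6371842 to 8904050 per P0 litter, so that 3 counts, taken as the smallest visible signal, equal 0.353 to 0.738 CPM, the unit that gives counts relative to library size. Reads that could not be assigned because genes overlap made up 16.3% and 17.5% of tallied reads in NDP10.2 and NPD9.2 and 7.07% to 11.6% in the other 6 litters. The notochord gene T was present in every litter (242 to 942 CPM at E12.5 and 574 to 2323 CPM at P0), Shh fell to 0.157 to 11.8 CPM at P0, and Noto had too few counts to test. Summed markers of other cells moved with stage. The 12 leukocyte markers summed to 85.5 to 217 CPM at E12.5, and to 5915, 6847, 6265 and 599.8 CPM in NPD26, NPD27, NPD28 and NPD30, with 12 of 12 higher at P0, although the P0 cells had passed a YFP sort that should leave leukocytes out. Erythroid markers summed to 23989, 9714, 9809 and 46751 CPM in NDP10.2, NPD3, NPD4 and NPD9.2 and to 330.4 to 1076 CPM at P0 (5 of 7 lower), and fetal liver markers to 576, 42.3, 217 and 700.3 CPM and 0.471 to 1.73 CPM (3 of 3 tested lower), both sums being highest in NDP10.2 and NPD9.2. Osteoblast markers summed to 55.7 to 329 CPM and 1088 to 1878 CPM (5 of 6 tested were higher at P0, and Dmp1 was at 0 in every E12.5 litter), sclerotome markers to 159 to 225 CPM and 14.7 to 29.4 CPM (7 of 7 lower), and skeletal muscle markers to 60.7 to 326 CPM and 18.5 to 98.1 CPM (3 of 4 tested lower). The 9 cartilage markers summed to 8853, 6816, 2392 and 4185 CPM at E12.5 (NDP10.2, NPD3, NPD4 and NPD9.2) and to 2620, 2025, 6863 and 8911 CPM at P0 (in the litter order just given). Of 8 tested, 3 were higher at P0 and 2 lower. Col2a1 was the largest component of the sum in all 8 litters. The paper detected collagen 2 and aggrecan protein in the notochord and the NP too, so the sum does not mark cartilage alone. The 7 neural markers summed to 198, 118, 858 and 233 CPM in NDP10.2, NPD3, NPD4 and NPD9.2 and to 85.5 to 208 CPM at P0 (3 of 5 tested lower). In bulk RNA fewer cells of a type and less RNA per cell cannot be told apart.

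Of the 45 genes, 43 had enough counts to be tested, and 9 of them (20.9%) differed between the stages at an adjusted p under 0.05, 4 higher at P0 (Chst12, Csgalnact1, Csgalnact2 and Dse) and 5 lower (Chsy1, Extl3, Hs3st1, Sulf1 and Slc35d1). Across all 15467 genes tested 27.9% differed, 16% higher and 12% lower, so the share in the set was not above that of the whole transcriptome. The median log2 fold change (P0 over E12.5 throughout) was -0.10 for the 43 genes and 0.04 for all tested genes. The CPM values of the stages did not overlap for 8 of the 43 genes, against 29.9% of all tested genes. An unadjusted p under 0.05 was reached by 16 of the 43 (37.2%) and by 39.7% of all tested genes. Without NDP10.2 and NPD9.2, the litters with the largest ambiguous shares and the highest erythroid, fetal liver and muscle sums, 4 genes were called (an alternative added once the values were known). Chst12, Csgalnact2 and Sulf1 were called again and Ndst3 was added (adjusted p = 0.0497), while the other 6 of the 9 lost the call (adjusted p = 0.0501 to 0.197), as did 48.4% of the genes called among all tested. Of the 4 genes that rose, 3 act in chondroitin chain initiation or 4-O-sulfation, and the 5 that fell comprise a chondroitin polymerase, 3 heparan sulfate genes and a nucleotide sugar transporter. The plot of fold changes by step shows how the calls fall among the groups.

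**Figure D1:**
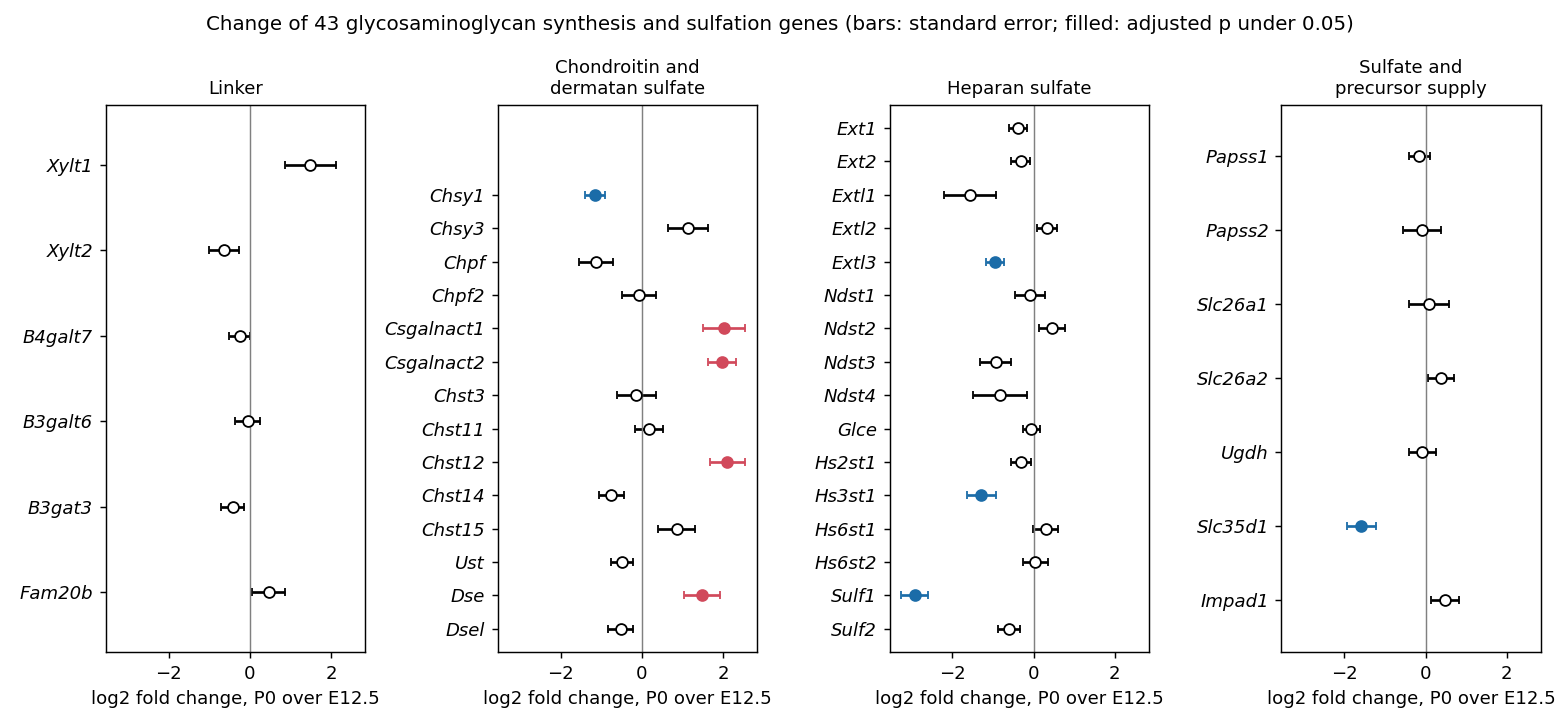
Log2 fold change (P0 over E12.5, x axis) of the 43 tested genes in 4 panels by step, with points for estimates and bars for 1 standard error, filled where the adjusted p was under 0.05 (red higher, blue lower). The 4 genes that rose are all in the chondroitin and dermatan panel, between 1.49 and 2.11, and Sulf1 at -2.93 lies farthest from 0.

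For the genes that changed and had a promoter entry in RefSeq (GRCm38.p6), 250 bases upstream of the start site were read. The table held 35 of the 45 genes and 6 of the 9 that changed. Shown here are the 3 windows among them that lie wholly outside the annotated gene, for a gene that rose (Csgalnact2, chr6:118139141-118139390, minus strand) and a pair that fell (Chsy1, chr7:66109242-66109491, plus strand, and Slc35d1, chr4:103215177-103215426, minus strand), so that the start regions of opposite responders can be read side by side. Capitals mark the GC box GGGCGG and the CCAAT box CCAAT, searched on both strands, so that the reverse complement is marked too.
Csgalnact2: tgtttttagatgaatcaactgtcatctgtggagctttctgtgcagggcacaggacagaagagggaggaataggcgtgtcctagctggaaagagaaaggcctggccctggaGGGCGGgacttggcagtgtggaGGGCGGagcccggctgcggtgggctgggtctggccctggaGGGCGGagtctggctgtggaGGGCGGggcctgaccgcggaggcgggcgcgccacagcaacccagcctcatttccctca
Chsy1: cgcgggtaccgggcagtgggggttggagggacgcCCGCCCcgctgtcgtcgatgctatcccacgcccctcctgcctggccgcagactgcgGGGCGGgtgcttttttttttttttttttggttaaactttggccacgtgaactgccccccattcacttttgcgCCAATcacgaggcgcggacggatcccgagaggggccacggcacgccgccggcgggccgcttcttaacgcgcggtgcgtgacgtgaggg
Slc35d1: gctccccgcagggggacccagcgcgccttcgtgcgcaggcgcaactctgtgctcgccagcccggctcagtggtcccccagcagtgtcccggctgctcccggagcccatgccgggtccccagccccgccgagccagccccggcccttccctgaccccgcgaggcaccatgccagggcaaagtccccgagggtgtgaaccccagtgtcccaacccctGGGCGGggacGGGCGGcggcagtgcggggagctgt
The Csgalnact2 window holds 4 GC boxes and 12 CG dinucleotides, that of Chsy1 2 GC boxes, 1 CCAAT box and 30 CG dinucleotides, and that of Slc35d1 2 GC boxes and 22 CG dinucleotides. None of the 3 holds the TATA box TATAAA. A second listed start site of Csgalnact2, inside the gene, has 0 GC boxes and 30 CG dinucleotides upstream, and the window of Hs3st1, which fell, has 0 GC boxes. Of the genes that rose, the Chst12 window holds 2 GC boxes and 2 CCAAT boxes, and that of Dse 3 GC boxes and 1 CCAAT box. Among all 32851 promoter windows of this length in RefSeq's set 32.7% hold a GC box, 33.8% a CCAAT box and 12.4% a TATA box, and the median number of CG dinucleotides is 6. GC boxes were thus found in windows of genes that moved in either direction.

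None of the 6 linker genes passed edgeR's test, against 27.9% of all tested genes. An unadjusted p under 0.05 was reached by 1 (16.7%, against 39.7%), and 1 was called by DESeq2 and 0 by limma-voom. Among all 15467 tested genes DESeq2 called 5124 and limma-voom 4064. Xylt1 and its paralog Xylt2 encode the xylosyltransferases that start every chain. Xylt1 measured 83.7, 45.1, 16.1 and 35.4 CPM at E12.5 (in the order NDP10.2, NPD3, NPD4 and NPD9.2) and 54.1, 37.9, 199.9 and 214 CPM at P0 (in the order NPD26, NPD27, NPD28 and NPD30), and this order is kept for every gene. The P0 litters split, with NPD28 and NPD30 above every E12.5 litter and NPD26 and NPD27 within the E12.5 range (log2 fold change 1.49 ± 0.64 (SE), adjusted p = 0.11), and DESeq2 called the gene (adjusted p = 0.0454). Xylt2 measured 43.6, 18.7, 15.7 and 28.8 CPM at E12.5 and 20.9, 17.4, 19.7 and 10.01 CPM at P0 (log2 fold change -0.65 ± 0.37 (SE), adjusted p = 0.219). The same 2 P0 litters, NPD28 and NPD30, had the higher cartilage marker sums of that stage and also the higher notochord and NP marker sums (4283 and 7912 CPM, against 3758 and 2202 CPM in NPD26 and NPD27). Acan, which encodes aggrecan, measured 895, 646, 2482 and 3603 CPM in the P0 litters in the order NPD26, NPD27, NPD28 and NPD30. The part of either cell type in the Xylt1 values was not tested.

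The remaining linker genes add the other sugars and a phosphate. B3gat3, which adds the glucuronic acid that completes the linker, had the highest level of the group per length of merged exons (12.6 CPM per kilobase over all litters). B3gat3 measured 47.7, 26.3, 26.1 and 50.2 CPM at E12.5 and 28.5, 24.4, 24.5 and 34.3 CPM at P0 (log2 fold change -0.43 ± 0.28 (SE), adjusted p = 0.293). Fam20b, the kinase that phosphorylates the linker xylose, was next at 9.41 CPM per kilobase. Fam20b measured 88.5, 92.1, 40.5 and 56.3 CPM at E12.5 and 57.2, 51.0, 112 and 162 CPM at P0 (log2 fold change 0.47 ± 0.40 (SE), adjusted p = 0.429). The galactosyltransferases B4galt7 and B3galt6 had log2 fold changes of -0.25 and -0.06, with adjusted p of 0.499 and 0.915. Apart from Xylt1, the estimates of the linker genes lay between -0.65 and 0.47.

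Chondroitin and dermatan sulfate genes held the increases. Of the 16 genes 14 were tested, and 5 (35.7%) changed, 4 higher and 1 lower, against 16% higher and 12% lower among all genes. DESeq2 called 6 and limma-voom 4. Both transferases that place the GalNAc that commits the linker to chondroitin rose, as did a 4-O-sulfotransferase and a dermatan epimerase, while a chondroitin polymerase fell.

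Csgalnact1 (chr8:68356781-68735146) encodes the initiating GalNAc transferase needed for normal aggrecan chains in cartilage. Csgalnact1 measured 56.1, 41.2, 16.2 and 22.6 CPM at E12.5 and 89.8, 56.4, 149.5 and 256 CPM at P0. Every P0 litter was above every E12.5 litter, by little at the boundary (56.1 in NDP10.2 and 56.4 in NPD27), and the mean rose from 34.0 ± 18.1 to 138 ± 87.5 CPM (SD, n = 4) (log2 fold change 2.02 ± 0.52 (SE), adjusted p = 0.0154). The call was lost without E12.5 litter NPD9.2 (adjusted p = 0.0523) and with no filter on low counts (0.0592). Its paralog Csgalnact2 (chr6:118107452-118139140), whose promoter is printed above, was lower per length at both stages (2.43 and 9.61 CPM per kilobase, against 6.68 and 27.1 for Csgalnact1). Csgalnact2 measured 8.49, 21.7, 10.9 and 11.8 CPM at E12.5 and 49.2, 33.0, 64.0 and 62.8 CPM at P0. The stages did not overlap, and the mean rose from 13.2 ± 5.80 to 52.3 ± 14.5 CPM (SD) (log2 fold change 1.98 ± 0.34 (SE), adjusted p = 0.00192). Csgalnact1 was highest in NPD30, the P0 litter with the lowest leukocyte sum, and Csgalnact2 there was 62.8 CPM, against its highest of 64.0 CPM in NPD28. NPD30 also had the highest notochord and NP, cartilage and osteoblast sums at P0 (7912, 8911 and 1878 CPM). The part of any of these cell types in the 2 increases was not tested.

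Chst12 (chr5:140505550-140525724) transfers sulfate to the 4-O position of GalNAc in chondroitin and showed the largest increase among the 43 genes. Chst12 measured 30.9, 17.0, 12.9 and 34.4 CPM at E12.5 and 68.1, 53.6, 151 and 136 CPM at P0. All P0 litters were above all E12.5 litters, with NPD28 and NPD30 the highest, and the mean rose from 23.8 ± 10.5 to 102 ± 48.4 CPM (SD) (log2 fold change 2.11 ± 0.42 (SE), adjusted p = 0.00443). Chst11, the other 4-O-sulfotransferase with substantial counts and the isoenzyme required for cartilage growth plates, did not pass the test. Chst11 measured 67.5, 62.8, 30.3 and 46.2 CPM at E12.5 and 39.8, 35.0, 78.0 and 81.0 CPM at P0 (log2 fold change 0.18 ± 0.35 (SE), adjusted p = 0.743). Chst13, a further 4-O-sulfotransferase, had at most 4 counts in any E12.5 litter and 7 to 39 counts per P0 litter and fell below the count filter. With no filter on low counts edgeR called it higher at P0 (log2 fold change 3.21, adjusted p = 0.0434). Its stages did not overlap, by little at the boundary (0.944 CPM in NDP10.2 and 1.01 CPM in NPD27).

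Transfer to the 6-O position of GalNAc is the task of Chst3 and Chst7. Chst3 measured 78.8, 37.3, 25.0 and 34.7 CPM at E12.5 and 24.1, 17.3, 75.0 and 43.4 CPM at P0 (log2 fold change -0.13 ± 0.48 (SE), adjusted p = 0.869). Its ranges overlapped widely. Chst7 had between 1 and 27 counts in any litter and fell below the count filter. Chst15, which adds a further sulfate to 4-sulfated GalNAc, stood at 19.7 to 30.4 CPM at E12.5 and 24.4 to 30.6 CPM in 3 of the P0 litters but 107 CPM in NPD28 (log2 fold change 0.86 ± 0.46 (SE), adjusted p = 0.19), and 17.9% of its exon sequence is shared with an antisense gene. The 2-O-sulfotransferase of uronic acid, Ust, gave an estimate of -0.49 on the log2 scale (adjusted p = 0.206).

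Polymerization is carried out by Chsy1, Chsy3, Chpf and Chpf2, which act in pairs. Chsy1 (chr7:66109515-66173798) was the chondroitin gene that fell. Chsy1 measured 43.4, 52.9, 31.8 and 50.4 CPM at E12.5 and 15.6, 18.6, 25.1 and 21.1 CPM at P0. The stages did not overlap, and the mean fell from 44.6 ± 9.45 to 20.1 ± 4.02 CPM (SD) (log2 fold change -1.15 ± 0.25 (SE), adjusted p = 0.00623). The call held in each fit that left out 1 litter. Chsy3, its partner in the pair of synthases, did not pass the test. Chsy3 measured 21.2, 9.37, 6.41 and 16.7 CPM at E12.5 and 14.5, 15.4, 44.3 and 43.1 CPM at P0 (log2 fold change 1.14 ± 0.49 (SE), adjusted p = 0.109). Its values were again highest in NPD28 and NPD30, and it passed the threshold with no filter on low counts (adjusted p = 0.0449). Chpf measured 122, 44.9, 35.8 and 77.5 CPM at E12.5 and 24.1, 18.2, 39.7 and 46.1 CPM at P0 (log2 fold change -1.12 ± 0.42 (SE), adjusted p = 0.0707). The Chpf fold change passed the threshold without E12.5 litter NPD4 (adjusted p = 0.0294), without P0 litter NPD30 (0.0358), with DESeq2 (0.0368), with upper-quartile scaling (0.0434) and with no filter (0.0266). Chpf2 gave -0.07 on the log2 scale (adjusted p = 0.921), and 45.9% of its exon sequence overlaps other genes, chiefly Smarcd3 on the opposite strand.

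Dermatan sulfate arises when an epimerase converts glucuronic acid of a chondroitin chain into iduronic acid. Dse (chr10:34151393-34207715) encodes the main epimerase. Dse measured 40.1, 61.7, 28.4 and 36.6 CPM at E12.5 and 165, 182, 80.9 and 40.3 CPM at P0. The stages overlapped, NPD30 lying within the E12.5 range and NPD26 and NPD27 at the top, while the mean rose from 41.7 ± 14.2 to 117 ± 67.7 CPM (SD) (log2 fold change 1.49 ± 0.45 (SE), adjusted p = 0.0308). Leukocyte sums were 5915, 6847, 6265 and 599.8 CPM in the same P0 litters, so that Dse and the sum were both lowest in NPD30, while NPD28 had a high sum and a Dse value of 80.9 CPM. The part of leukocytes in the Dse increase was not tested. The call was lost with limma-voom (adjusted p = 0.0562) and when any of NDP10.2, NPD4, NPD9.2, NPD26 or NPD27 was left out (adjusted p = 0.0688 to 0.0878). The second epimerase, Dsel, and the dermatan 4-O-sulfotransferase Chst14 had log2 fold changes of -0.51 and -0.75, with adjusted p of 0.246 and 0.101.

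**Figure D2:**
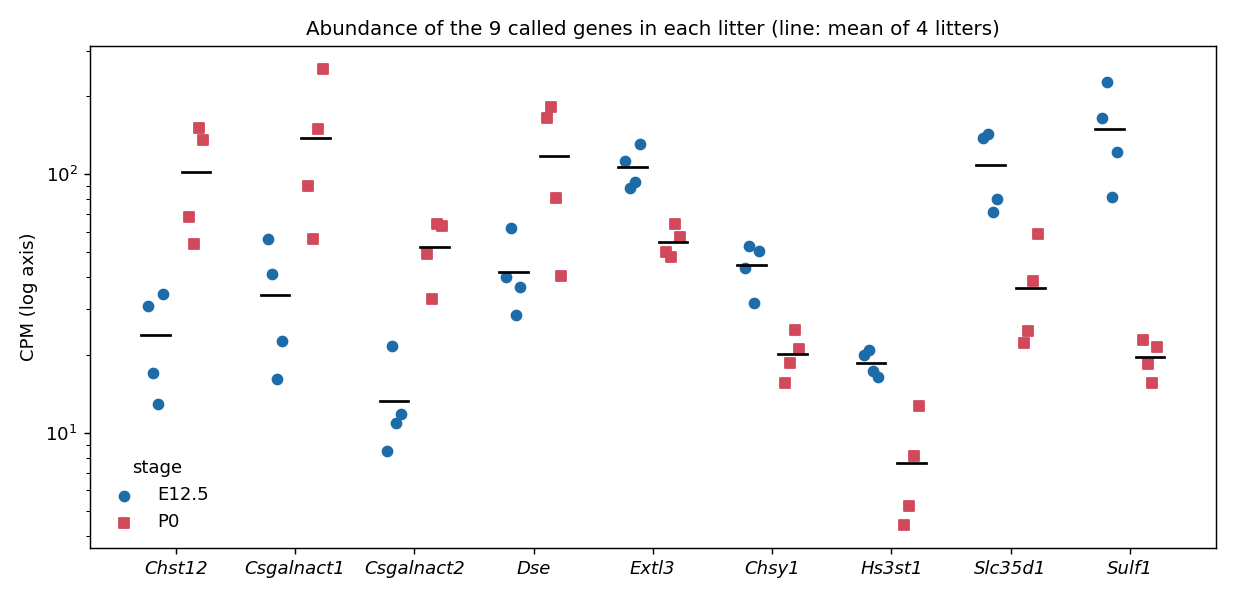
CPM on a log axis (y) of the 9 genes that passed the test, with 1 point for each litter (blue circles E12.5, red squares P0) and a line at the mean of 4 litters. Dse is the gene whose stages overlap, and the Sulf1 points of P0 lie between 15.5 and 22.8 CPM, below all E12.5 points.

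The heparan sulfate genes that changed were lower at P0, and their share was not above that of all genes. All 16 were tested, 3 (18.8%) fell and 0 rose at an adjusted p under 0.05 in edgeR, against 27.9% called and 12% lower among all genes, and 6 (37.5%) had an unadjusted p under 0.05, against 39.7%. DESeq2 and limma-voom each called 3. The log2 fold changes were negative for 12 of the 16 genes, with a median of -0.35.

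Chain initiation and polymerization come first in order of action. Extl3 (chr14:65052060-65149855) adds the N-acetylglucosamine that commits the linker to heparan sulfate, the counterpart of the Csgalnact step. Extl3 measured 112, 88.4, 93.2 and 131 CPM at E12.5 and 50.0, 47.9, 63.9 and 57.2 CPM at P0. The stages did not overlap, and the mean fell from 106 ± 19.4 to 54.7 ± 7.29 CPM (SD) (log2 fold change -0.95 ± 0.22 (SE), adjusted p = 0.00799), a change of less than 2-fold. Ext1 and Ext2 form the polymerase, and their log2 fold changes were -0.39 and -0.32 (adjusted p = 0.23 and 0.345). Extl1 was at 0.606 to 5.66 CPM in all litters (log2 fold change -1.57 ± 0.64 (SE), adjusted p = 0.0917), and Extl2 gave 0.33 on the log2 scale (adjusted p = 0.351).

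The N-deacetylase/N-sulfotransferases make the initial modification of the heparan chain, on which the later ones depend. Ndst1 was the most abundant of them (13.8 CPM per kilobase). Ndst1 measured 97.2, 95.8, 114 and 166 CPM at E12.5 and 80.5, 105, 199 and 57.0 CPM at P0 (log2 fold change -0.10 ± 0.37 (SE), adjusted p = 0.87). The P0 litters enclosed the range of the E12.5 litters. The estimate for Ndst2 was 0.45 on the log2 scale (adjusted p = 0.314), and that for Ndst4, at 0.865 to 9.91 CPM, was -0.83 (adjusted p = 0.396). Ndst3 measured 8.83 to 13.9 CPM at P0 and 11.8 to 38.0 CPM at E12.5, with NPD4 the highest (log2 fold change -0.94 ± 0.38 (SE), adjusted p = 0.0866), and passed the threshold without NDP10.2 (adjusted p = 0.0439). Ndst4 was also highest in NPD4. That litter had the highest neural marker sum (858 CPM), chiefly Tubb3 (576 CPM) and Neurod1 (175 CPM), while Nes and Pax6 were lowest there among E12.5 litters. The part of neural cells in the Ndst3 and Ndst4 values was not tested. Glce, the epimerase that makes iduronic acid in heparan sulfate, had all 8 litters between 25.9 and 37.7 CPM (log2 fold change -0.06 ± 0.21 (SE), adjusted p = 0.874).

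Among the O-sulfotransferases, Hs3st1 (chr5:39613935-39755475), which adds the rare sulfate of the antithrombin-binding site, fell. Hs3st1 measured 20.1, 20.9, 17.3 and 16.5 CPM at E12.5 and 4.40, 5.19, 8.12 and 12.7 CPM at P0. Every P0 litter was below every E12.5 litter, and the mean fell from 18.7 ± 2.12 to 7.61 ± 3.77 CPM (SD) (log2 fold change -1.29 ± 0.36 (SE), adjusted p = 0.0214). The call was lost without NPD3 (adjusted p = 0.0512), NPD26 (0.0569) or NPD27 (0.0619). Hs2st1 acts on uronic acid and Hs6st1 and Hs6st2 on the 6-O position of glucosamine, and their log2 fold changes were -0.31, 0.29 and 0.04, with adjusted p of 0.401, 0.506 and 0.943.

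Sulf1 and Sulf2 are extracellular enzymes that remove 6-O-sulfate from finished heparan chains and so alter the binding of Wnt, FGF and BMP ligands. Sulf1 (chr1:12692277-12861192) showed the largest change among the 43 tested genes. Sulf1 measured 165, 228, 81.4 and 122 CPM at E12.5 and 22.8, 18.5, 15.5 and 21.5 CPM at P0. The stages were far apart, with the lowest E12.5 litter at 81.4 CPM and the highest P0 litter at 22.8 CPM, and the mean fell from 149 ± 62.6 to 19.6 ± 3.25 CPM (SD) (log2 fold change -2.93 ± 0.33 (SE), adjusted p = 0.000262). The call held in every setting tried, including the 8 that left out 1 litter. Sulf1 is also transcribed in mesenchyme, and sclerotome marker sums, given above, were higher in every E12.5 litter than in any P0 litter. Skeletal muscle marker sums reached higher values at E12.5, but the stages overlapped (60.7 CPM in E12.5 litter NPD4 and 98.1 CPM in P0 litter NPD27). The part of either tissue in the Sulf1 difference was not tested. Sulf2 (chr2:166073089-166155663) had the highest level per length of the 45 genes at 58.2 CPM per kilobase. Sulf2 measured 426, 440.2, 355 and 431 CPM at E12.5 and 195, 211, 279.9 and 395 CPM at P0. NPD30 reached the E12.5 range and the other 3 P0 litters lay below it (log2 fold change -0.61 ± 0.27 (SE), adjusted p = 0.118). Without NPD30 the log2 fold change was -0.89 and passed the threshold (adjusted p = 0.0207).

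Of the 7 genes for the supply of sulfate and nucleotide sugars 1 changed (14.3%, against 27.9% of all genes), with 1 at an unadjusted p under 0.05, 1 called by DESeq2 and 1 by limma-voom. Impad1, Papss2 and Papss1 of this group had the highest levels per length of the 45 genes after Sulf2. Slc35d1 (chr4:103170649-103215164) carries UDP-glucuronic acid and UDP-GalNAc, the building blocks of chondroitin, into the endoplasmic reticulum. Slc35d1 measured 138, 144, 71.4 and 80.2 CPM at E12.5 and 22.3, 24.8, 38.6 and 58.8 CPM at P0. The stages did not overlap, and the mean fell from 108 ± 37.8 to 36.1 ± 16.7 CPM (SD) (log2 fold change -1.58 ± 0.36 (SE), adjusted p = 0.00814).

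The enzymes that make and recycle the sulfate donor did not pass the test. Impad1, a Golgi phosphatase that clears the nucleotide left after sulfate transfer, stood at 45.2 CPM per kilobase. Impad1 measured 226, 348, 235 and 176 CPM at E12.5 and 267, 206, 340.0 and 567 CPM at P0 (log2 fold change 0.49 ± 0.34 (SE), adjusted p = 0.324). Papss2 and Papss1 synthesize PAPS and stood at 35.3 and 29.2 CPM per kilobase. Papss2 measured 178, 209.6, 71.6 and 83.1 CPM at E12.5 and 78.9, 74.1, 111 and 244 CPM at P0 (log2 fold change -0.09 ± 0.46 (SE), adjusted p = 0.905). NDP10.2 and NPD3 were high among the E12.5 litters and NPD30 among the P0 litters, so that the spread within a stage exceeded the difference between stages. Papss1 measured 98.8, 118, 72.9 and 85.6 CPM at E12.5 and 70.9, 61.0, 85.2 and 119.9 CPM at P0 (log2 fold change -0.15 ± 0.26 (SE), adjusted p = 0.706). The sulfate transporters Slc26a1 and Slc26a2 and the UDP-glucuronic acid synthesizing enzyme Ugdh had log2 fold changes of 0.08, 0.39 and -0.08, with adjusted p of 0.923, 0.405 and 0.878.

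Within a litter, the share of a gene in a pair that serves the same step does not depend on library size, and 13 such pairs were described without a test. The stages did not overlap in 3 of them. Chst11 made up 48.3%, 61.3%, 50.1% and 36.5% of Chst11 plus Chst12 (counts per kilobase) at E12.5 and 19.98%, 21.8%, 18.1% and 20.3% at P0. Chst12 thus held between 38.7% and 63.5% of the pair in E12.5 litters and between 78.2% and 81.9% in P0 litters. Chsy1 made up 78.0%, 90.7%, 89.6% and 83.9% of Chsy1 plus Chsy3 at E12.5 and 65.1%, 67.6%, 49.5% and 45.9% at P0. Sulf1 made up 16.8%, 21.2%, 10.6% and 12.8% of Sulf1 plus Sulf2 at E12.5 and 5.74%, 4.35%, 2.80% and 2.75% at P0. Sulf2 was thus the larger component in all 8 litters. Csgalnact1 held a mean of 70.8% of its pair with Csgalnact2 at both stages.

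**Figure D3:**
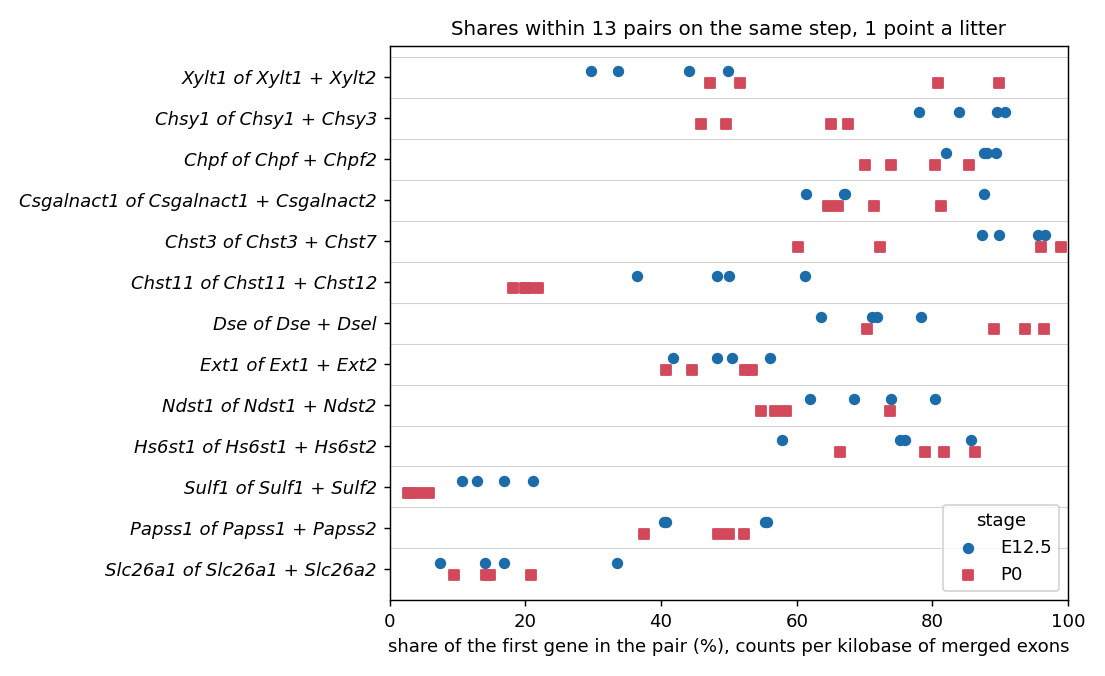
Share of the gene named first in each of 13 pairs (x axis, percent of counts per kilobase of merged exons), with 1 point for each litter (blue circles E12.5, red squares P0). The stages are separate for Chsy1 with Chsy3, Chst11 with Chst12 and Sulf1 with Sulf2, and overlap in the other 10 pairs.

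Summing the genes of a step, in CPM per kilobase, describes the same values by step. These sums were chosen after the values were seen and were not tested. Genes for the committing GalNAc transfer summed to 9.11 ± 3.76 (SD, n = 4) at E12.5 and 36.7 ± 19.4 at P0, and the lowest P0 litter (17.1) was above the highest E12.5 litter (12.6). Genes for 4-O-sulfation summed to 19.6 ± 6.48 and 55.0 ± 25.5, again without overlap. The 6-O-sulfotransferases summed to 7.24 ± 3.64 and 7.08 ± 3.43, and the ratio of 4-O- to 6-O-sulfotransferase mRNA lay between 2.06 and 3.75 in E12.5 litters and between 6.70 and 10.8 in P0 litters. Polymerases summed to 33.2 ± 12.5 and 19.6 ± 7.38, with overlap. The ratio of committing transferases to polymerases lay between 0.178 and 0.443 in E12.5 litters and between 1.29 and 2.39 in P0 litters. For heparan sulfate, the N-deacetylase/N-sulfotransferases summed to 22.6 ± 4.44 and 22.5 ± 8.62 and the endosulfatases to 83.6 ± 11.5 and 47.8 ± 15.5, both with overlap between stages.

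**Figure D4:**
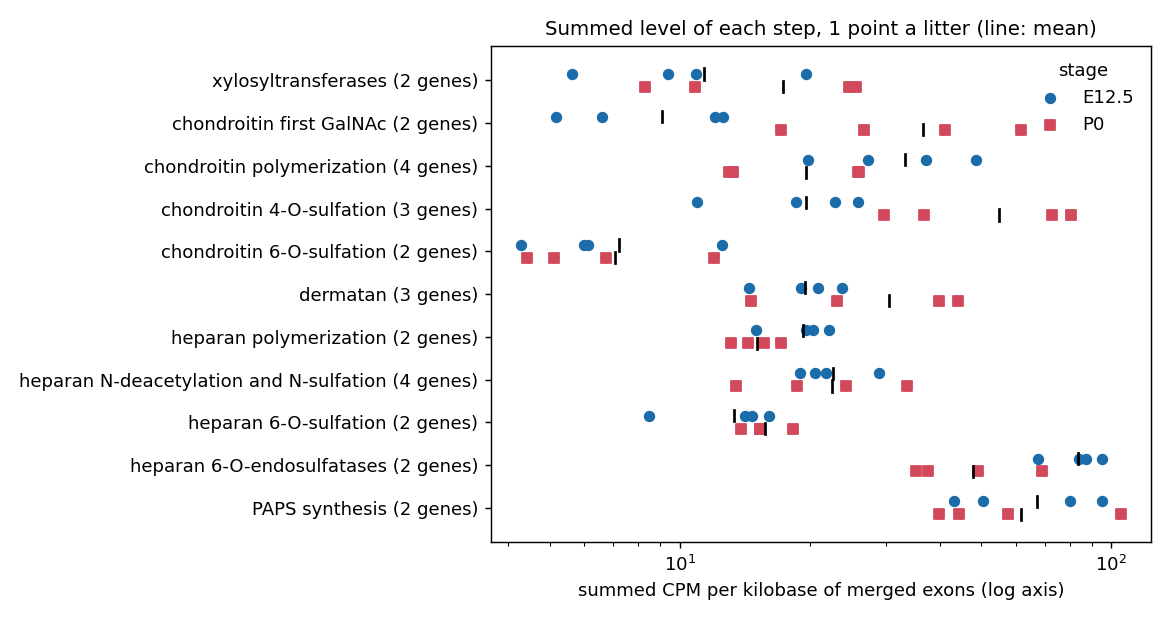
Summed CPM per kilobase of the genes of each of 11 steps (log x axis), with 1 point for each litter (blue circles E12.5, red squares P0) and a line at the mean of 4 litters. P0 lies wholly above E12.5 for the committing GalNAc transfer and for 4-O-sulfation of chondroitin, and the stages overlap at the other 9 steps.

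The litters of P0 differed among themselves in a way that recurred across genes. In NPD28 and NPD30 Xylt1, Csgalnact1, Chsy3 and Chst12 were higher than in NPD26 and NPD27, and in the same litters the cartilage marker sum, Acan, the notochord and NP marker sum and T were higher. Other genes of the set had this order too, so it was not particular to genes with positive estimates. Among them were Csgalnact2, Chst3, Chst11, Papss1, Papss2 and Impad1, and also Chsy1, Extl3, Hs3st1 and Slc35d1, which fell at P0. Sulf1 did not split this way, and Dse had the opposite order. Of the cartilage markers, Col2a1, Acan, Col9a1 and Hapln1 were higher in NPD28 and NPD30, whereas Matn3, Comp, Snorc and Cnmd did not split this way. Matn1, at low counts, was lower there (0.471 and 0.606 CPM, against 1.10 and 2.31 CPM in NPD26 and NPD27). At E12.5, NDP10.2 and NPD3 exceeded NPD4 and NPD9.2 in Sulf1, Papss2 and Slc35d1, together with T (942 and 790 against 242 and 362 CPM) and the notochord and NP marker sum (4094 and 3975 against 1717 and 1907 CPM), and the cartilage marker sum was higher there too (8853 and 6816 against 2392 and 4185 CPM). Xylt1, Csgalnact1, Dse, Hs3st1, Fam20b, Chst3 and Chst11 had the same order, among other genes of the set. Csgalnact2, Chst12, Chsy1 and Extl3 did not. The part of notochordal or cartilage cells in these values was not tested.

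**Figure D5:**
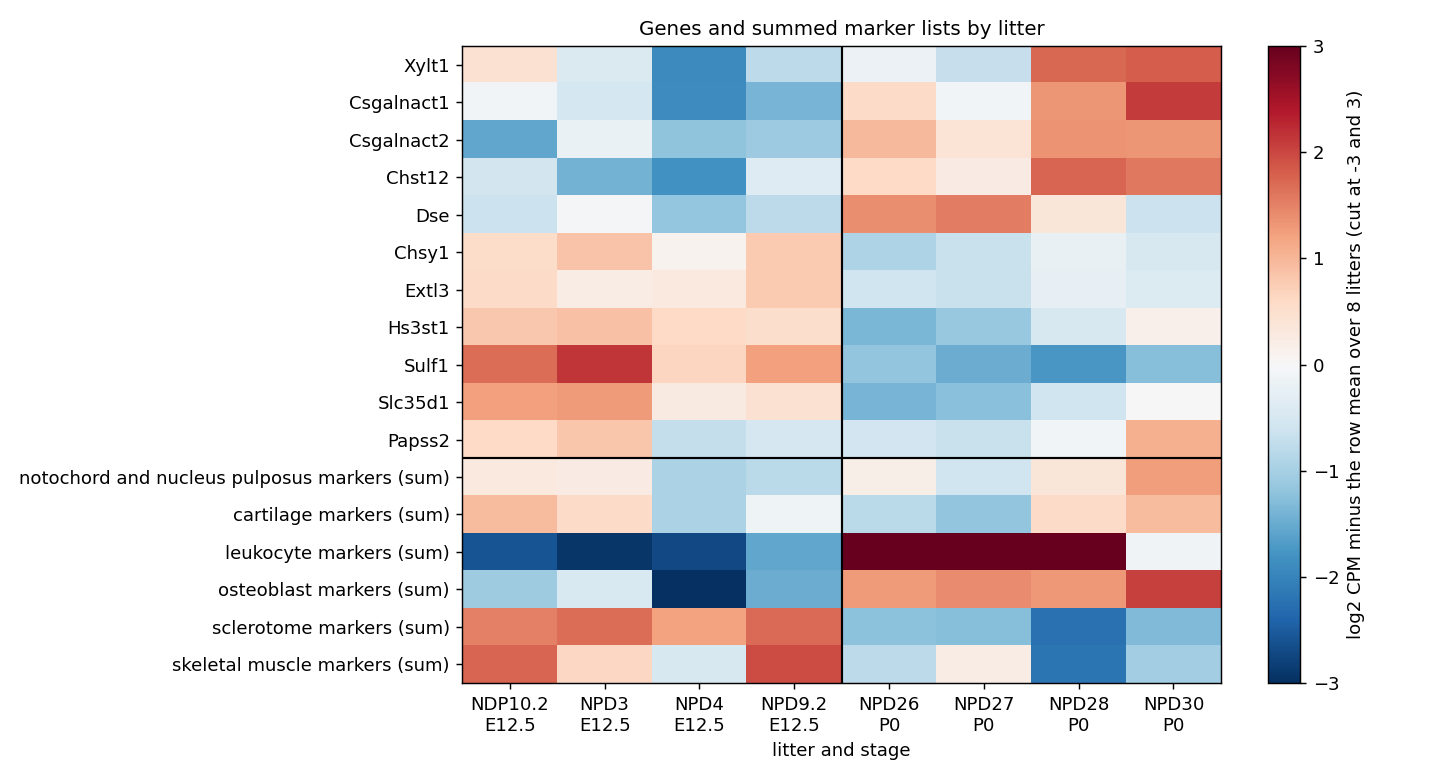
Log2 CPM minus the mean over the 8 litters (colour, red higher and blue lower, limited to -3 and 3) for 11 genes and 6 summed marker lists (rows) by litter (columns, E12.5 left of the line). Leukocyte markers are high in NPD26, NPD27 and NPD28 (5915 to 6847 CPM) and lower in NPD30 (599.8 CPM), and among the P0 litters Dse is lowest in NPD30, where Csgalnact1 is highest.

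Further genes of the pathway were read from 3 lists, 41 genes in all, of which 38 were tested. Of 12 additional synthesis genes 9 were tested, 0 rose and 2 fell (22.2% against 27.9% of all genes), with a median log2 fold change of -0.44. Chst2, a sulfotransferase of N-acetylglucosamine that acts on keratan sulfate and related chains, fell, with E12.5 litters at 48.7 to 71.5 CPM and P0 litters at 13.3 to 23.2 CPM (log2 fold change -1.57 ± 0.25 (SE), adjusted p = 0.00131). Hs3st3b1, a 3-O-sulfotransferase of heparan sulfate like Hs3st1, also fell (log2 fold change -1.54 ± 0.41 (SE), adjusted p = 0.0156). It overlapped between stages because NPD30 (14.6 CPM) exceeded NPD4 (13.7 CPM).

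Genes for precursor sugars and donor transport moved upward where they changed. All 13 were tested, and 5 rose and 0 fell (38.5%, against 27.9% called and 16% higher among all genes), with a median log2 fold change of 0.30. All 5 lost the call without NDP10.2 and NPD9.2. There were 6 at an unadjusted p under 0.05, 6 called by DESeq2 and 3 by limma-voom. Slc26a11, a sulfate transporter, measured 6.89 to 11.5 CPM at E12.5 and 31.1, 48.5, 30.8 and 9.85 CPM in the P0 litters (log2 fold change 1.62 ± 0.43 (SE), adjusted p = 0.0159), the low value being that of NPD30. Bpnt1, the cytosolic counterpart of Impad1, rose in every P0 litter, from 8.96 to 14.5 CPM to 18.6 to 36.8 CPM (log2 fold change 1.41 ± 0.29 (SE), adjusted p = 0.00478). Slc35d2, a nucleotide sugar transporter of the Golgi, rose from 3.39 to 4.43 CPM to 6.52 to 9.66 CPM (log2 fold change 1.07 ± 0.35 (SE), adjusted p = 0.0441), and its call was lost in each of the 8 fits that left out 1 litter.

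Genes of chain breakdown held the largest share of changes among the 3 lists. All 16 were tested, and 11 rose and 0 fell (68.8% against 16% higher among all genes), 13 were called by DESeq2 and 9 by limma-voom, with positive estimates for all 16 and a median log2 fold change of 1.51. The CPM values of the stages did not overlap for 5 of the 16, against 29.9% of all tested genes. Without NDP10.2 and NPD9.2, 8 of the 11 (72.7%) lost the call. Hexa, which encodes a lysosomal enzyme, measured 67.2, 43.9, 31.2 and 50.9 CPM at E12.5 and 347, 393, 181 and 57.3 CPM at P0 (log2 fold change 2.34 ± 0.53 (SE), adjusted p = 0.00807). Hpse, the heparanase that cuts heparan sulfate chains, had 0 to 3.44 CPM at E12.5 and 4.55 to 21.2 CPM at P0 (log2 fold change 2.77 ± 0.80 (SE), adjusted p = 0.0252). In both genes NPD30 was the lowest P0 litter, as it was for leukocyte markers, and leukocytes also express these enzymes. Among the 11 genes that rose, Ids, Arsg and Sumf1 were not lowest in NPD30. Ids was highest there (153, 164, 145 and 227 CPM in NPD26, NPD27, NPD28 and NPD30). The P0 cells had been sorted for YFP, and the part of leukocytes in these increases was not tested. Of the 18 genes called in the 3 lists, 14 (77.8%) lost the call without NDP10.2 and NPD9.2, against 48.4% of the genes called among all tested.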

How the data were processed

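The authors aligned the reads to mouse GRCm38 with STAR 2.4.0j and deposited raw counts per Gencode gene and litter from htseq-count, without normalization. The strand setting of the counting and strandedness of the libraries are not given in the sources used here, so reads of overlapping antisense genes cannot be told apart. All values are whole numbers, and 0 pairs of litters held identical counts. The stage of each litter was taken from its label.

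Counts were tested in R 4.3.3 with edgeR 4.0.16 (TMM normalization, filterByExpr at its defaults of 10 counts and a total of 15, robust quasi-likelihood F-test), with Benjamini-Hochberg adjustment over all 15467 tested genes and calls at 0.05. The standard error is the size of the log2 fold change divided by the square root of F. CPM uses TMM library sizes of tested genes, and CPM per kilobase divides it by merged exon length from Gencode M21 on GRCm38. The floor of 3 counts covers counting error only. The procedure was tested on simulated data. Of the 43346 identifiers 42462 were matched to a symbol.

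Alternatives were DESeq2 1.42.0, limma 3.58.1 (voom), DESeq2 size factors, upper-quartile scaling, other filters, a fit without robust estimation, removal of mitochondrial and hemoglobin genes, an added fold change over 2 and each litter left out in turn. The alternative without NDP10.2 and NPD9.2 was chosen after the data were seen. Every gene of the set is named, with each litter given for those that changed and those with the highest level per kilobase in their group. In the further lists up to 3 changed genes with the largest change in each direction are named. A gene that this rule would name is not reported here. The genes and lists were chosen with earlier results of these data known. Promoter sequences come from RefSeq. Protein sequences were not analysed here.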

Additional observations from a re-analysis of the deposited data

Results flagged for a closer look

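In 3 of 86 groups of 4 litters 1 litter stood apart from the other 3 by a gap above Dixon's 95% critical value, and chance flags about 1 group in 20. Chst15, which adds a further sulfate to 4-sulfated GalNAc, measured 107 CPM in P0 litter NPD28 and 24.4 to 30.6 CPM in the other P0 litters. The same litter had a neutrophil marker sum of 6678 CPM, against 764 to 973 CPM in the other P0 litters, and the part of these cells in the Chst15 value was not tested. Hs6st1 measured 27.1 CPM in E12.5 litter NPD3 and 61.3 to 67.6 CPM in the other E12.5 litters. Its paralog Hs6st2 measured 15.8 CPM in E12.5 litter NPD4 and 27.9 to 30.2 CPM in the others. All of these genes lay above the test's threshold with all litters (adjusted p = 0.19 for Chst15, 0.506 for Hs6st1 and 0.943 for Hs6st2 in edgeR's quasi-likelihood test).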

How the results depend on the processing

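The 9 genes that changed kept their direction under all 17 alternatives that refitted the counts, and Chst12, Csgalnact2 and Sulf1 kept the call in each of them. Of 153 pairs of a changed gene and an alternative 136 kept the call and 17 lost it. Among the genes that had not changed, 10 had an estimate that changed sign under some alternative, none with a call reversed. Without the E12.5 litters NDP10.2 and NPD9.2 (chosen after the data were seen), where 2 litters remain at that stage, 2581 genes were called (1493 higher and 1088 lower), 4 of the set (2 higher and 2 lower) and 4 of the further lists (3 higher and 1 lower). With 1 litter left out, the calls of the set ranged from 7 to 11 (2 to 4 higher, 4 to 7 lower), those of the further lists from 11 to 18 (9 to 16 higher, 2 to 3 lower) and those of all genes from 3612 to 4529. For the set and the further lists the lowest counts of higher genes came without NPD9.2. DESeq2's Wald test called 11 of the set and limma-voom 8. Upper-quartile scaling moved the median log2 fold change of all tested genes from 0.04 to -0.11. The 3 pairs without overlap in shares were the same on raw counts, which follows from the construction. No paired analysis was possible because the stages come from separate litters, whose labels give no number that pairs them. With 4 litters a stage and 3 counts equal to 0.353 to 0.738 CPM, Chst7 and Chst13 fell below the count filter. With no filter, edgeR called Chst13 higher at P0 (log2 fold change 3.21, adjusted p = 0.0434) and did not call Chst7 (adjusted p = 0.481).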
